A study of Mus musculus with 16 samples.

Results

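The comparison asked whether the cardiac transcript response to pressure overload depends on CHIP, the product of Stub1, which is both a partner of chaperones and a ubiquitin ligase. All 16 two-colour arrays of the series entered it. For each feature, the TAB response was the mean log2 ratio after trans-aortic banding (TAB, a surgical narrowing of the aorta) minus that after sham surgery, and the interaction was the response in CHIP-/- minus the response in wild type. A positive interaction therefore means a higher response in CHIP-/- and a negative one a lower response.

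Heart ventricles of 129Sv mice were collected 1 week after surgery in 4 groups of 4 biological replicates: CHIP-/- after TAB, CHIP-/- after sham, wild type after TAB and wild type after sham. The null allele is constitutive, so cardiomyocytes, fibroblasts, vessels and blood cells all lack the gene. Ages and sexes are not given in the labels, and which animals shared a litter or an operating day is not stated. Heart RNA carried Cy5, and a pooled RNA of whole neonatal mice of mixed 129Sv and C57BL/6 background carried Cy3 on every array, so all values below are log2 ratios of heart over this common RNA. Levels of different genes are therefore not set against each other.

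Pressure overload makes ventricular muscle grow, secrete natriuretic peptides, lay down extracellular matrix and reduce its use of fatty acids. CHIP binds the chaperones of the Hsp70 and Hsp90 families and marks misfolded client proteins for degradation. Fibroblasts make most of the collagen of the heart, macrophages take up debris, capillary endothelium passes fatty acids to the muscle, and mitochondria in cardiomyocytes burn them.

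Heart muscle was checked for with Myh6, the alpha myosin heavy chain, and Tnni3, cardiac troponin I, which were well above background on all 16 arrays. Both are also made in atrial muscle, so they cannot test the ventricular label. Mean log2 ratios of Tnni3 were 5.59, 6.24, 6.19 and 6.21 in CHIP-/- TAB, CHIP-/- sham, wild-type TAB and wild-type sham, and those of Myh6 were 4.32, 5.08, 4.70 and 5.19 in the same order. Stub1 had log2 ratios of -1.47 to -1.17 in CHIP-/- TAB and -1.39 to -1.24 in CHIP-/- sham, against -0.41 to 0.25 in wild-type TAB and 0.30 to 0.43 in wild-type sham, and its interaction did not pass the test (0.37, SE 0.14, adjusted p = 0.13). Whether the null allele removes the sequence that this Stub1 probe matches is not stated in the labels. Heart-channel spots well above background made up 26.9% to 37.2% of each array. Because the 4 arrays of a group shared a slide, an effect of the slide cannot be told apart from one of the group. The Y-linked transcripts Ddx3y and Eif2s3y were above background on 3 sham arrays only (CHIP-/- replicates 2 and 4 and wild-type replicate 4). Xist, a transcript of female cells, was not above background on these 3 arrays by its brightest probe (-3.27 to -3.20). It was above background on every other array. By these transcripts the 3 sham animals read as male and all TAB animals as female, so sex was not balanced with surgery. The atrial light chain Myl7 was high on 3 other sham arrays (CHIP-/- replicate 1 and wild-type replicates 1 and 3), and whether this came from atrial tissue was not tested.

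A feature is called where limma's p, adjusted by the Benjamini-Hochberg method over all 11058 features, is below 0.05. The interaction was called for 600 features, 5.43% of those tested, with 313 higher (2.83%) and 287 lower (2.6%) in CHIP-/-. At an unadjusted p below 0.05 there were 2063. In 50 of the called features it reached a log2 size of 1 or more, 37 higher and 13 lower. Without the 3 arrays with Y-linked transcripts 98 features were called, 97 of them among the 600, and without the 3 arrays with high Myl7 441 were called. The sign of the interaction stayed the same in all 598 and all 597 of the called features that could be measured in these smaller sets. From the genes that the naming rule picked, 100 with a called interaction were chosen for description. Of these 100, 57 were not called without the 3 arrays with Y-linked transcripts and 41 were not with median centring.

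The TAB responses of both genotypes ran mostly in parallel and were wider in CHIP-/-. Across features the SD of the response was 0.41 in CHIP-/- and 0.30 in wild type, and the responses correlated at r = 0.83 (Spearman 0.79, over 11058 features, which are not independent replicates). TAB responses were called for 5223 features in CHIP-/- (47.2%, with 24% of features rising and 23.2% falling) and 3949 in wild type (35.7%, with 18.7% rising and 17% falling). The ranges of TAB and sham arrays did not overlap for 42.5% of features in CHIP-/- and 31.8% in wild type, and those of CHIP-/- TAB and wild-type TAB did not overlap for 13%. Responses of at least 1 on the log2 scale numbered 331 in CHIP-/- (214 upward and 117 downward) and 96 in wild type (73 upward and 23 downward).

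By the signs and sizes of the 2 responses the 600 features fell into 3 classes. Responses of the same sign and larger in CHIP-/- made up 396 (3.58% of features tested), of which 232 were rises (2.1%) and 164 falls (1.48%). Responses of opposite sign made up 173 (1.56%), and in 27 of these both responses were called (0.244%). Responses of the same sign and smaller in CHIP-/- made up 31 (0.28%), 23 rises (0.208%) and 8 falls (0.0723%). Sorting by the estimated responses is a description: in the opposite class the wild-type response was often close to 0.

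**Figure D1:**
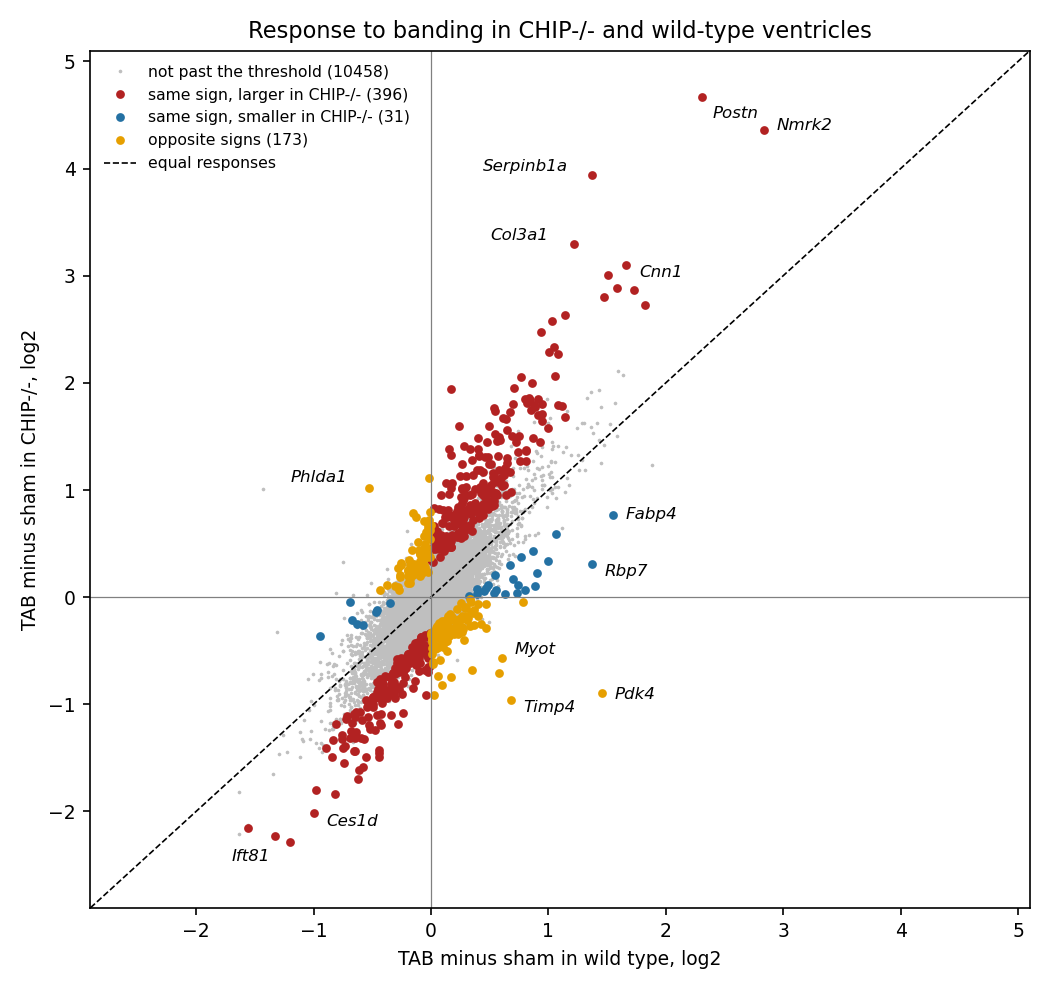
Each point is 1 of the 11058 features, with its log2 TAB response in CHIP-/- on the vertical axis and that in wild type on the horizontal axis; colours mark the classes of called interactions and the dashed line marks equal responses. The 232 larger rises lie above the line at the upper right and the 164 larger falls below it at the lower left.

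The genotypes differed for many more features after TAB than after sham. The difference was called for 1276 features after TAB (11.5%), 580 higher (5.25%) and 696 lower (6.29%) in CHIP-/-, and for 4 after sham (0.0362%), and both comparisons share arrays with the interaction. The 232 larger rises had a median genotype difference of 0.44 after TAB and -0.11 after sham. The 164 larger falls had medians of -0.40 after TAB and 0.08 after sham, and the 23 smaller rises had -0.40 and 0.08. The 4 features called after sham were Stub1 (-1.70), Nppb, encoding B-type natriuretic peptide (-0.98), Ly6a, a surface protein of endothelial and stem cells (0.41), and the interferon-inducible Ifi27 (0.67). Nppb, Ly6a and Ifi27 also had a called interaction.

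Some genes responded to TAB in opposite directions. In 19 of the 27 features with both responses called, the transcript fell with TAB in CHIP-/- and rose in wild type, and in 8 it rose in CHIP-/- and fell in wild type. With arrays centred on their median in place of loess, which puts the median response of all features at -0.22 in CHIP-/- and -0.19 in wild type, 11 of the 27 kept opposite signs, and with the probes of a gene averaged 26 did. In every other setting all of those measured did. Pdk4, Timp4, Tacc2, Myot, Fam13a, Tmem144 and Phlda1 kept opposite signs in all 35.

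Pdk4 encodes a kinase that shuts pyruvate dehydrogenase and spares glucose. Its log2 ratios were -0.37, -0.33, -0.12 and -0.68 in CHIP-/- TAB and 0.41, 1.11, 1.17 and -0.62 in CHIP-/- sham, against 0.62, 1.07, 1.10 and 2.24 in wild-type TAB and -0.12, -0.25, 0.44 and -0.87 in wild-type sham. The wild-type TAB arrays lay above all wild-type sham arrays, whereas the CHIP-/- groups overlapped because of 1 low sham array. The response was -0.89 in CHIP-/- and 1.45 in wild type, and the interaction was -2.35 (SE 0.46, adjusted p = 0.0048).

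Timp4, the cardiac tissue inhibitor of metalloproteinases, had log2 ratios of 1.03, 0.94, 0.80 and 1.14 in CHIP-/- TAB and 1.83, 2.08, 1.78 and 2.04 in CHIP-/- sham, against 2.15, 2.32, 1.94 and 2.09 in wild-type TAB and 1.23, 1.51, 1.78 and 1.24 in wild-type sham. No TAB group overlapped with its sham group, and the 2 directions were opposite. It fell by 0.96 in CHIP-/- and rose by 0.68 in wild type (interaction -1.64, SE 0.16, adjusted p = 1.2e-05). Timp3, a relative bound to the matrix, fell by 0.40 in CHIP-/- and rose by 0.28 in wild type (interaction -0.68, SE 0.15, adjusted p = 0.01), with wild-type TAB at 0.39 to 0.93 overlapping wild-type sham at 0.03 to 0.57. Its call ended without the 3 arrays with Y-linked transcripts (-0.60, adjusted p = 0.13), and with median centring its wild-type response was -0.07. Timp1, the inducible member of the family, rose by 2.89 in CHIP-/- and 1.58 in wild type, and its interaction of 1.31 was not called on its 2 other probes (0.81 and 0.62) or without the 3 arrays (1.05, adjusted p = 0.12).

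Tacc2, encoding a coiled-coil protein of centrosomes, had log2 ratios of 0.52, 0.42, 0.13 and 0.55 in CHIP-/- TAB and 0.99, 1.36, 1.2 and 0.89 in CHIP-/- sham, against 1.24, 1.32, 1.27 and 1.72 in wild-type TAB and 0.81, 0.85, 0.97 and 0.61 in wild-type sham. All 4 CHIP-/- TAB arrays lay below all other 12 arrays, and its interaction was -1.29 (SE 0.16, adjusted p = 0.00014). A second probe was also called (-0.74), and the third was not (-0.17). Myot, the Z-disc protein myotilin, had log2 ratios of -1.60, -1.62, -1.52 and -2.10 in CHIP-/- TAB and -1.29, -1.0, -1.34 and -0.93 in CHIP-/- sham, against -0.40, -1.0, -0.77 and -0.61 in wild-type TAB and -1.27, -1.24, -1.41 and -1.27 in wild-type sham. The transcript fell by 0.57 in CHIP-/- and rose by 0.60 in wild type (interaction -1.17, SE 0.17, adjusted p = 0.00066), with no overlap between TAB and sham in either genotype.

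Other genes that fell in CHIP-/- and rose in wild type had smaller responses. Fam13a responded by -0.29 in CHIP-/- and 0.47 in wild type, and Tmem144 by -0.27 and 0.33. Flt1, a receptor of vascular endothelial growth factor, responded by -0.21 in CHIP-/- and 0.31 in wild type, and Kcnj8, the pore of the vascular ATP-sensitive potassium channel, by -0.28 and 0.25. Asph, encoding junctin and an aspartyl hydroxylase, responded by -0.28 and 0.27, and Lims2, a focal adhesion adaptor, by -0.29 and 0.27. The interaction was not called on the other probes of Flt1, Kcnj8, Asph and Tmem144, and for Flt1, Kcnj8, Asph and Lims2 the wild-type response was below 0 with median centring. Sult1a1, a sulfotransferase, fell by 0.68 in CHIP-/- and had 0.35 in wild type, which did not pass (interaction -1.02, adjusted p = 0.0092). Tmem144 (adjusted p = 0.12), Flt1 (0.12), Lims2 (0.08) and Sult1a1 (0.2) were not called without the 3 arrays with Y-linked transcripts.

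Phlda1, an early-response gene induced by growth factors and stress, led the reverse pattern. Its log2 ratios were 1.17, 0.89, 0.90 and 0.92 in CHIP-/- TAB and 0.0046, -0.15, -0.57 and 0.53 in CHIP-/- sham, against 0.20, 0.36, -0.01 and 0.25 in wild-type TAB and 0.30, 0.76, 0.57 and 1.26 in wild-type sham. The CHIP-/- TAB arrays lay above all CHIP-/- sham arrays, and the wild-type groups overlapped by 1 array. It rose by 1.02 in CHIP-/- and fell by 0.53 in wild type (interaction 1.54, SE 0.25, adjusted p = 0.00097). The semaphorin gene Sema3b responded by 0.32 in CHIP-/- and -0.25 in wild type (interaction 0.57), and Snd1, encoding an RNA-binding nuclease, by 0.26 and -0.19. Hexokinase 1, Hk1, responded by 0.19 and -0.27, Zfp521, a zinc finger protein, by 0.21 and -0.27, and Tln1, the integrin-linking protein talin, by 0.25 and -0.19, but the CHIP-/- responses of Snd1, Hk1, Zfp521 and Tln1 were below 0 with median centring. With that centring Sema3b had 0.02 in CHIP-/- (interaction 0.50, adjusted p = 0.16). Its interaction and those of Snd1, Hk1, Zfp521 and Tln1 were then not called. Snd1 (adjusted p = 0.099), Hk1 (0.078) and Zfp521 (0.11) were not called without the 3 arrays with Y-linked transcripts. The other probes of Hk1 were not called, and the 2 other probes of Tln1 gave interactions of -0.23 and 0.14, which did not pass. Marchf3, a membrane ubiquitin ligase, was not well above background on any array of CHIP-/- sham or wild-type TAB. Its levels there are only bounds, CHIP-/- TAB was measured on 1 of 4 arrays, and its interaction has no exact size.

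**Figure D2:**
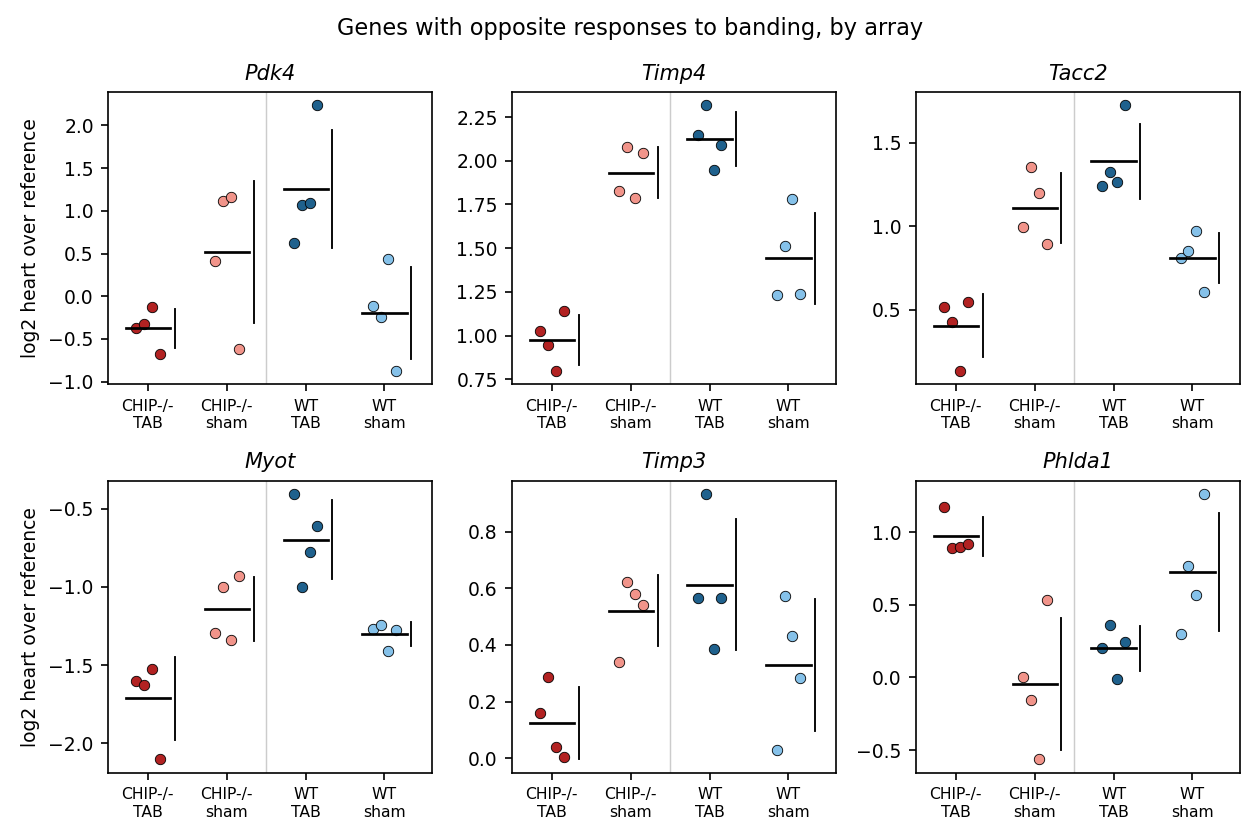
Log2 ratios of Pdk4, Timp4, Tacc2, Myot, Timp3 and Phlda1 on every array, by group; points are arrays, the horizontal line is the mean and the vertical line is ± 1 SD (n = 4). In the panels of Timp4 and Tacc2 the CHIP-/- TAB points lie below and the wild-type TAB points above their sham groups, and in the panel of Phlda1 the CHIP-/- TAB points lie highest on average.

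Genes that rose with TAB in both genotypes but more in CHIP-/- were led by matrix and wound-repair genes. Of 32 measured matricellular and injury matrix genes, 20 were called higher and 0 lower, with median responses of 1.19 in CHIP-/- and 0.37 in wild type. Of 21 measured fibrillar collagens and their processing enzymes 11 were called higher and 0 lower, with median responses of 1.12 and 0.40. Both shares stand against 2.83% of all features called higher. The median interactions were 0.69 and 0.59, against 0.00 over all features.

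Postn encodes periostin, a matrix protein of activated fibroblasts. Its log2 ratios were 1.19, 0.82, 1.22 and 0.72 in CHIP-/- TAB and -3.38, -3.79, -3.63 and -3.91 in CHIP-/- sham, against -1.95, -0.22, -0.82 and -0.0021 in wild-type TAB and -3.52, -3.43, -3.51 and -1.76 in wild-type sham. Every CHIP-/- TAB array lay above every other array, and the wild-type groups overlapped through 1 high sham array. The transcript rose by 4.67 in CHIP-/- and by 2.31 in wild type (interaction 2.36, SE 0.47, adjusted p = 0.0056). Without the 3 arrays with Y-linked transcripts, which include the high sham array, the interaction was 1.75 with adjusted p = 0.06.

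Col3a1, the type III collagen chain, had log2 ratios of -0.06, -0.49, -0.15 and -0.67 in CHIP-/- TAB and -3.40, -3.85, -3.29 and -4.0 in CHIP-/- sham, against -2.47, -1.39, -1.79 and -1.2 in wild-type TAB and -3.20, -3.04, -3.21 and -2.28 in wild-type sham. CHIP-/- TAB again lay above all other arrays. Its interaction of 2.07 (SE 0.32, adjusted p = 0.00074) was called in all 35 other settings, and that of the type I chain gene Col1a1 (1.25, SE 0.21) was too. The type I chain gene Col1a2 had an interaction of 1.05 and the fibril-associated Col14a1 one of 1.29, neither called without the 3 arrays with Y-linked transcripts (0.81 with adjusted p = 0.065, and 0.92 with 0.061). Serpinh1, the collagen chaperone, rose by 1.78 in CHIP-/- and 0.89 in wild type (interaction 0.89).

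Fndc1, a gene with fibronectin domains, had log2 ratios of -0.39, -0.13, -0.38 and -0.58 in CHIP-/- TAB and -2.23, -2.31, -2.20 and -2.51 in CHIP-/- sham, against -1.66, -1.13, -1.62 and -1.27 in wild-type TAB and -2.05, -1.84, -1.31 and -1.14 in wild-type sham. The CHIP-/- TAB arrays lay above all 12 others, and the wild-type groups overlapped. The transcript rose by 1.94 in CHIP-/-, and the wild-type difference of 0.17 did not pass (adjusted p = 0.42), with an interaction of 1.78 (SE 0.22, adjusted p = 0.00014). Ltbp3, a binding protein of latent transforming growth factor beta, behaved alike, with 0.72 in CHIP-/- and -0.01 in wild type, as did Ccn4, a target of Wnt signalling, with 1.24 and 0.26, where the wild-type values did not pass. Sfrp2, a secreted Wnt modulator, was not well above background on any CHIP-/- sham array, so CHIP-/- TAB was at least 2.93-fold higher (adjusted p = 1.4e-08).

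Aspn, the proteoglycan asporin, rose by 1.84 in CHIP-/- and 0.85 in wild type. Fstl1, a follistatin-like secreted protein, rose by 2.80 and 1.47, Ltbp2 by 2.64 and 1.14, and the vascular collagen gene Col8a1 by 3.01 and 1.51. Clu, the extracellular chaperone clusterin, rose by 2.58 in CHIP-/- and 1.03 in wild type, and Tgfb3, a transforming growth factor beta ligand, by 1.3 and 0.48. Of the 32 matricellular genes 5, and of the 21 collagen genes 4, were called without the 3 arrays with Y-linked transcripts, and the interactions of Clu (1.09, adjusted p = 0.15), Ltbp2 (1.11, 0.15), Col8a1 (1.21, 0.076) and Fstl1 (0.96, 0.081) were not.

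**Figure D3:**
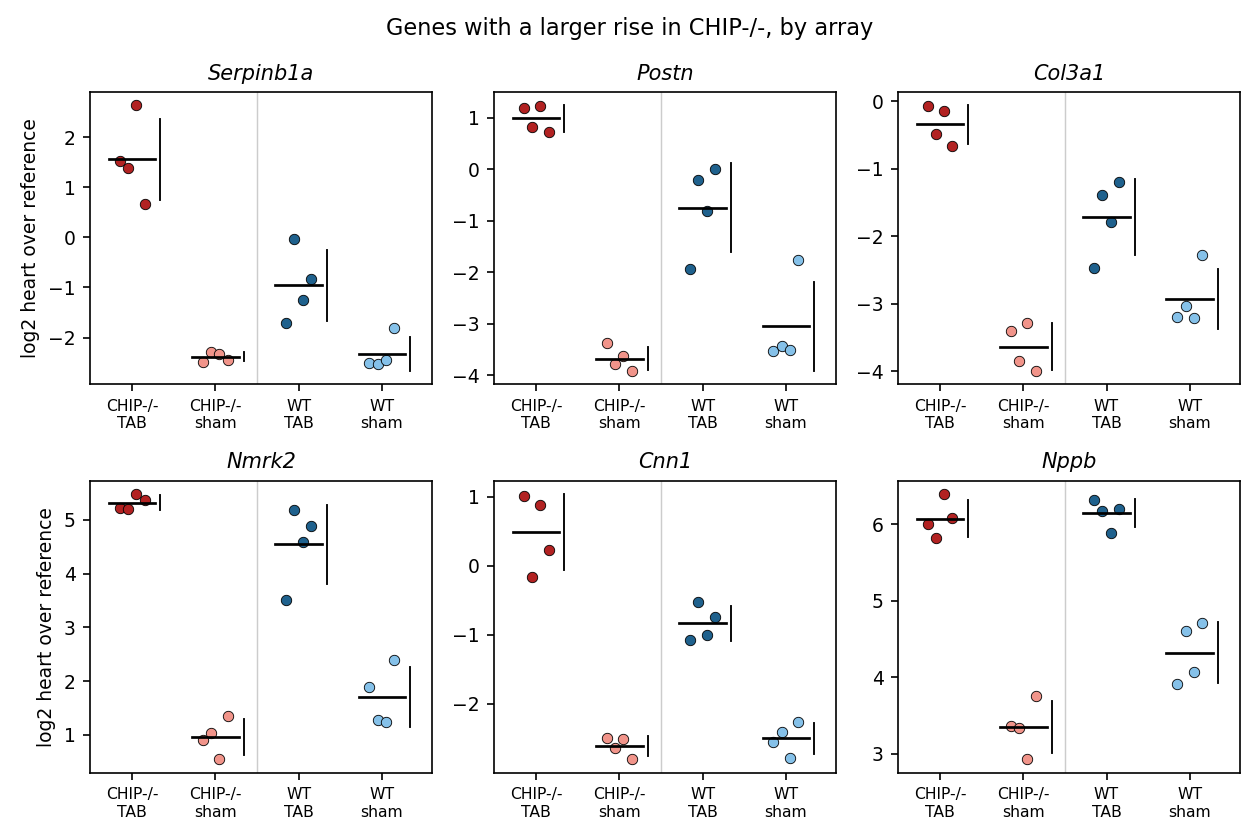
Log2 ratios of Serpinb1a, Postn, Col3a1, Nmrk2, Cnn1 and Nppb on every array, by group; points are arrays, the horizontal line is the mean and the vertical line is ± 1 SD (n = 4). In the panels of Serpinb1a, Postn, Col3a1 and Cnn1 the CHIP-/- TAB points lie above the wild-type TAB points, while those of Nppb overlap.

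Serpinb1a, an intracellular inhibitor of neutrophil proteases, had the highest interaction of all genes with a symbol. Its log2 ratios were 1.53, 1.38, 2.64 and 0.67 in CHIP-/- TAB and -2.48, -2.28, -2.34 and -2.44 in CHIP-/- sham, against -1.71, -0.04, -1.25 and -0.84 in wild-type TAB and -2.51, -2.53, -2.45 and -1.82 in wild-type sham. TAB and sham did not overlap in either genotype, and all CHIP-/- TAB arrays exceeded all wild-type TAB arrays. It rose by 3.94 in CHIP-/- and 1.37 in wild type (interaction 2.57, SE 0.42, adjusted p = 0.0013).

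Macrophage markers as a group, though not every one, rose further in CHIP-/-: of 30 measured, 11 were called higher and 0 lower, against 2.83% and 2.6% of all features. The interaction was negative for 6 of the 30, for 3 of them at an unadjusted limma p below 0.05. After TAB 19 of the 30 were called higher and 3 lower in CHIP-/- than in wild type. The markers' median responses were 0.82 in CHIP-/- and 0.42 in wild type. Their mean log2 ratio per array was 0.25 to 0.53 in CHIP-/- TAB and -0.46 to -0.39 in CHIP-/- sham, against 0.01 to 0.07 in wild-type TAB and -0.42 to -0.29 in wild-type sham. Lyz2, the macrophage lysozyme, rose by 1.65 in CHIP-/- and 0.94 in wild type (interaction 0.70), and Csf1r, the receptor that sustains macrophages, rose by 0.42 in CHIP-/- with -0.09 in wild type, which did not pass. The second probe of Lyz2 gave 0.44 and 0.22 (interaction 0.22, adjusted p = 0.51) and that of Csf1r an interaction of 0.41 (adjusted p = 0.08), and Csf1r was not called without the 3 arrays with Y-linked transcripts (0.44, adjusted p = 0.084). Spp1, the cytokine osteopontin, rose by 2.47 in CHIP-/- and 0.93 in wild type (interaction 1.54), but without the 3 arrays with Y-linked transcripts its interaction missed the threshold (1.23, adjusted p = 0.1). In tissue RNA, more cells of a type and more RNA per cell cannot be told apart.

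Of 26 measured lysosomal genes 9 were called higher and 0 lower, where 2.83% of all features were called higher and 2.6% lower. The lysosomal median responses were 0.44 in CHIP-/- and 0.10 in wild type. With median centring these medians were 0.02 and -0.25, and 1 of the 26 was called. The cathepsin genes Ctss and Ctsb encode lysosomal cysteine proteases and Ctsd an aspartic protease. Ctss, which macrophages express, rose by 2.06 in CHIP-/- and 1.06 in wild type. Ctsb rose by 0.83 and Ctsd by 0.50 in CHIP-/-, while their wild-type values of 0.07 and -0.05 did not pass. The second probe of Ctsb gave 0.14 and -0.18 (interaction 0.32, adjusted p = 0.45), and that of Ctsd 0.06 and -0.42 (interaction 0.47, adjusted p = 0.0091). Of 22 measured fibroblast markers, several of which are also on the collagen list, 9 were called higher and 1 lower. Their mean log2 ratio was 0.02 to 0.18 in CHIP-/- TAB and -1.15 to -0.84 in CHIP-/- sham, against -0.55 to -0.10 in wild-type TAB and -0.94 to -0.62 in wild-type sham. Leaving out the 3 arrays with Y-linked transcripts, 3 of 30 macrophage markers, 3 of 26 lysosomal genes and 2 of 22 fibroblast markers were called higher, and Ctss was not (0.82, adjusted p = 0.054). The part of these cell markers in the matrix and lysosomal differences was not tested. Lymphocyte and neutrophil markers were mostly not measurable, with 2 of 21 and 4 of 14 above background.

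Single contractile and cytoskeletal genes rose further in CHIP-/-, but the sarcomere list did not: of 19 measured sarcomere genes 1 was called higher and 5 lower, with a median interaction of -0.13. Among all features 2.83% were called higher and 2.6% lower. Of 20 tubulin and intermediate filament genes 3 were called higher and 0 lower, and of 18 intercalated disc genes 1 was called higher and 0 lower. Des, the intermediate filament desmin that links Z-discs, had log2 ratios of 2.24, 1.82, 2.33 and 2.05 in CHIP-/- TAB and 0.77, 0.77, 0.81 and 0.79 in CHIP-/- sham, against 1.01, 1.38, 0.93 and 1.2 in wild-type TAB and 0.69, 0.97, 0.89 and 1.26 in wild-type sham. It rose by 1.32 in CHIP-/- and the wild-type groups overlapped (0.17, adjusted p = 0.23), giving an interaction of 1.15 (SE 0.16, adjusted p = 0.00035). Cnn1, the actin-binding protein calponin, had log2 ratios of 1.00, -0.16, 0.89 and 0.22 in CHIP-/- TAB and -2.50, -2.64, -2.51 and -2.81 in CHIP-/- sham, against -1.08, -0.52, -1.0 and -0.74 in wild-type TAB and -2.56, -2.40, -2.78 and -2.26 in wild-type sham. TAB and sham did not overlap in either genotype, and the interaction was 1.44 (SE 0.25, adjusted p = 0.0021, and 1.25 with adjusted p = 0.056 without the 3 arrays with Y-linked transcripts). Myl9, a regulatory light chain of smooth and non-muscle myosin, rose by 2.29 in CHIP-/- and 1.00 in wild type (interaction 1.29). Of all 18 measured smooth muscle and pericyte markers, however, 3 were called higher and 1 lower, and the median interaction was 0.01.

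The larger rise also took in genes known to be induced in stressed cardiomyocytes. Nmrk2, a muscle kinase of nicotinamide riboside in NAD synthesis, had log2 ratios of 5.22, 5.20, 5.48 and 5.37 in CHIP-/- TAB and 0.91, 1.04, 0.54 and 1.35 in CHIP-/- sham, against 3.51, 5.17, 4.59 and 4.89 in wild-type TAB and 1.89, 1.28, 1.23 and 2.40 in wild-type sham. The CHIP-/- TAB arrays lay above every wild-type TAB array by a narrow margin. The genotype difference was 0.78 after TAB and -0.74 after sham, neither of them called, and the interaction was 1.52 (SE 0.37, adjusted p = 0.018, and 1.52 with adjusted p = 0.066 without the 3 arrays with Y-linked transcripts).

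Nppb had log2 ratios of 6.00, 5.82, 6.40 and 6.08 in CHIP-/- TAB and 3.36, 3.34, 2.93 and 3.76 in CHIP-/- sham, against 6.32, 6.17, 5.89 and 6.20 in wild-type TAB and 3.91, 4.60, 4.07 and 4.71 in wild-type sham. The TAB groups overlapped and the CHIP-/- sham arrays all lay below the wild-type sham arrays, so its interaction of 0.90 (SE 0.23, adjusted p = 0.024) came with a genotype difference of -0.07 after TAB and -0.98 after sham. Leaving out CHIP-/- TAB replicate 3, CHIP-/- sham replicate 3, wild-type TAB replicate 3, or wild-type sham replicate 2 or 4 ended its call, with values of 0.76 to 0.82 (without wild-type sham replicate 4, 0.77 and adjusted p = 0.063), and its second probe gave 1.01 (adjusted p = 0.079). Nppa, the atrial natriuretic peptide, had an interaction of 1.14 (SE 0.33, adjusted p = 0.045) that was lost in 19 of 35 other settings, and 3 of the 4 CHIP-/- TAB arrays were at the scanner's ceiling for its probe, which counts as saturated, so that value is not exact. Its second probe gave 1.47 (adjusted p = 0.029). Gdf15, a stress cytokine, responded by 1.67 in CHIP-/- and 0.64 in wild type, but was above background on 1 of the 4 CHIP-/- sham arrays and lost its call in 20 of 34 other settings.

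Promoter sequences of genes that moved together were searched for 3 known motifs. The 250 bases before the annotated start are shown for 3 genes with larger rises, 2 that hold the letters TATAAA and 1 that holds a CArG box, the motif bound by serum response factor. They come from RefSeq (GRCm38.p6), read 5′ to 3′ on the gene's strand, and capitals mark the motif on either strand.
Postn: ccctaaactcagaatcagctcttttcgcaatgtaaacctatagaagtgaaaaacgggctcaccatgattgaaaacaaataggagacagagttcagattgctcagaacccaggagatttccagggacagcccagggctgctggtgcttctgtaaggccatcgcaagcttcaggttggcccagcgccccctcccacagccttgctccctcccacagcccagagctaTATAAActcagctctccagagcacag
Nmrk2: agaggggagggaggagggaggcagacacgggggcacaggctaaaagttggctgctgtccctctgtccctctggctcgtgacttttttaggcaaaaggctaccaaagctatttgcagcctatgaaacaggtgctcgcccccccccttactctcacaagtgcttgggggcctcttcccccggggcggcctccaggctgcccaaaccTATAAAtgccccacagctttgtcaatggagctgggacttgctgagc
Myl9: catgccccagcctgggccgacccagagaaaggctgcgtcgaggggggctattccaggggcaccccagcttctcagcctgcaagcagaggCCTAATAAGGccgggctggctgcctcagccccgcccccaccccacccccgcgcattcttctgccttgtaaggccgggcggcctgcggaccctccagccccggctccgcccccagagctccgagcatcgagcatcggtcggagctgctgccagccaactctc
The Postn window lies at chr3:54360857-54361106 on the plus strand with the motif 26 to 21 bases before the start, the Nmrk2 window at chr10:81202038-81202287 on the minus strand with the motif 46 to 41 bases before, and the Myl9 window at chr2:156775214-156775463 on the plus strand with the CArG box 161 to 152 bases before. Over windows of 250 bases before to 50 bases after each start, TATAAA on either strand was found in 12.7% of 205 windows of larger rises, 9.59% of 146 windows of larger falls, 11% of 164 windows of opposite-sign genes and 13.3% of 30 windows of smaller responses, against 7.93% of 10254 windows of all measured genes and 13.6% of all 32851 windows. The CArG box was found in 1.46%, 3.42%, 0.61% and 0% of the same windows in that order, against 1.5% of windows of measured genes and 1.63% of all windows. The element of the oestrogen-related receptors, TNAAGGTCA on either strand, was found in 1.95%, 0%, 0% and 0% of the same windows, and in 0% of 46 windows of genes called lower in 4 mitochondrial lists, against 0.731% of windows of measured genes and 1.28% of all windows. A match here is a description of letters, not a binding site, and a missing one says only that the letters are not in the window.

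Genes that fell in both genotypes and further in CHIP-/- included some of the mitochondrial burning of fuel. Of the 164 larger falls, 12 were on the fatty acid oxidation list and 6 on that of the tricarboxylic acid cycle. Of 31 measured genes of fatty acid oxidation 13 were called lower and 0 higher, against 2.6% of all features called lower, with median responses of -0.84 in CHIP-/- and -0.47 in wild type. Averaged over these genes, the log2 ratio per array was 0.34 to 0.67 in CHIP-/- TAB and 1.17 to 1.39 in CHIP-/- sham, against 0.69 to 0.95 in wild-type TAB and 1.12 to 1.31 in wild-type sham. All CHIP-/- TAB arrays thus lay below all wild-type TAB arrays.

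Acsl1, which activates long-chain fatty acids with coenzyme A, had log2 ratios of -0.17, 0.18, -0.30 and 0.02 in CHIP-/- TAB and 1.16, 1.10, 1.27 and 0.96 in CHIP-/- sham, against 0.77, 0.53, 0.59 and 0.48 in wild-type TAB and 1.21, 1.14, 1.15 and 0.96 in wild-type sham. The 4 groups formed 3 levels, with both sham groups highest and CHIP-/- TAB lowest, and the interaction was -0.67 (SE 0.13, adjusted p = 0.0037). The 2 other probes of Acsl1 gave -0.32 and -0.31, neither called (adjusted p = 0.24 and 0.13). Cpt1b, which admits fatty acids into mitochondria, fell by 0.86 in CHIP-/- and 0.34 in wild type, and Hadhb, a subunit of the trifunctional oxidation enzyme, by 1.15 and 0.58. The interaction of Cpt1b was -0.52 and was not called on its second probe (-0.25, adjusted p = 0.24), and without the 3 arrays with Y-linked transcripts neither Cpt1b (-0.48, adjusted p = 0.12) nor Hadhb (-0.56, adjusted p = 0.096) was called. Cd36, a fatty acid transporter of the cell surface, fell by 0.37 in CHIP-/-, with 0.05 in wild type not passing. Hadh, a short-chain dehydrogenase, had an interaction of -0.94 that 12 of 35 other settings ended and that lacks the value of CHIP-/- sham replicate 3.

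Of 20 measured tricarboxylic acid cycle genes 6 were called lower and 0 higher, against 2.6% of all features called lower. The cycle genes' median responses were -0.77 in CHIP-/- and -0.41 in wild type. With median centring 0 of the 20 were called (10 lower at an unadjusted p below 0.05), and without wild-type sham replicate 4 limma called 3. Pdhb, a subunit of pyruvate dehydrogenase, fell by 0.93 in CHIP-/- and 0.49 in wild type, and Suclg1, of succinate-CoA ligase, by 0.86 and 0.36. Acacb, which makes the malonyl-CoA that restrains fatty acid entry, fell by 0.95 and 0.49. Leaving out the 3 arrays with Y-linked transcripts, limma called 2 of 30 oxidation genes and 0 of 21 cycle genes (11 cycle genes at an unadjusted p below 0.05), with median interactions of -0.45 and -0.29, and Pdhb, Suclg1 and Acacb were not called.

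Ppargc1a encodes the coactivator PGC-1alpha, which drives mitochondrial genes. Its log2 ratios were 0.35, 0.59, 0.38 and 0.60 in CHIP-/- TAB and 1.34, 1.42, 1.38 and 1.43 in CHIP-/- sham, against 1.59, 1.53, 1.3 and 1.24 in wild-type TAB and 1.23, 1.36, 1.5 and 1.73 in wild-type sham. The CHIP-/- TAB arrays lay below all other 12 arrays, which overlapped with one another. It fell by 0.91 in CHIP-/-, against -0.04 in wild type, which did not pass (interaction -0.88, SE 0.13, adjusted p = 0.00074). The second probe of Ppargc1a gave -0.75 in CHIP-/- and 0.38 in wild type (interaction -1.13, adjusted p = 0.0011), so the wild-type response differed between probes.

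The respiratory chain fell with TAB in CHIP-/- and did not fall as a group in wild type under the main scaling. All 36 measured genes of complex I had a negative interaction, 17 of them called lower and 0 higher, and 11 of 35 genes of complexes III, IV and V were called lower and 0 higher. Among all features 2.6% were called lower and 2.83% higher. With TAB, 23.2% of all features fell and 24% rose in CHIP-/-, and 17% fell and 18.7% rose in wild type. In CHIP-/- 26 complex I genes fell with TAB and 0 rose, whereas in wild type 6 fell and 8 rose, with median responses of -0.36 and 0.05. For complexes III, IV and V, 23 fell and 2 rose in CHIP-/-, whereas 6 fell and 6 rose in wild type, with medians of -0.33 and 0.05. With median centring the wild-type medians were -0.39 and -0.43, so whether the chain held its level in wild type depends on the scaling, while the median interactions were -0.44 and -0.45. Under that centring limma called 0 of 36 and 1 of 35 genes (25 and 24 lower at an unadjusted p below 0.05), and without wild-type sham replicate 4 it called 8 and 2. Without the 3 arrays with Y-linked transcripts limma called 0 of 37 and 0 of 38 measured genes (26 and 25 lower at an unadjusted p below 0.05), and the median interactions were -0.32 and -0.30.

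Ndufb10, an accessory subunit of complex I, had log2 ratios of 1.36, 1.71, 1.32 and 1.5 in CHIP-/- TAB and 1.99, 1.92, 1.89 and 2.00 in CHIP-/- sham, against 2.02, 1.76, 1.92 and 1.90 in wild-type TAB and 1.94, 1.87, 1.90 and 1.69 in wild-type sham. All CHIP-/- TAB arrays but 1 lay below every other array, that 1 being above a single wild-type sham array, and the interaction was -0.53 (SE 0.11, adjusted p = 0.0077). Ndufs4, another complex I subunit, had -0.37 in CHIP-/- and 0.12 in wild type (interaction -0.49), and Cox6a2, the heart and skeletal muscle isoform of a cytochrome oxidase subunit, had -0.42 and 0.02 (interaction -0.44). Cox5b, in the same enzyme, had -0.31 and 0.10, of which only the CHIP-/- value passed. Cox7a2, a cytochrome oxidase subunit not restricted to muscle, had -0.09 in CHIP-/-, which did not pass, and rose by 0.30 in wild type. Of 75 mitochondrial ribosomal protein genes 7 were called lower and 0 higher, 9.33% against 2.6% of all features called lower. With median centring limma called 0 of the 75 (13 lower at an unadjusted p below 0.05). It called 1 of 74 without the 3 arrays with Y-linked transcripts and 2 of 75 without wild-type sham replicate 4. Mrpl23 was among the 7 (-0.31 in CHIP-/- and 0.15 in wild type, but -0.79 and -0.23 with median centring).

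**Figure D4:**
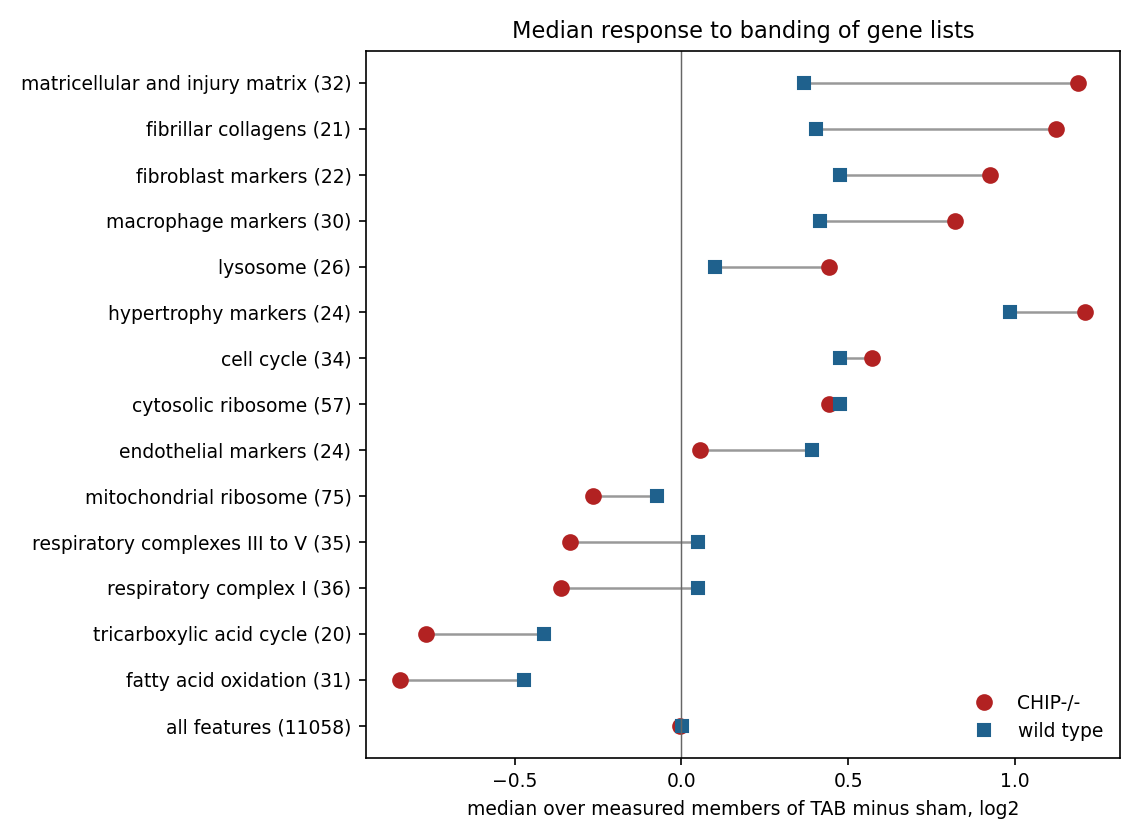
Median log2 TAB response of the measured members of gene lists, in CHIP-/- (circles) and wild type (squares), with the number of measured members in brackets. Matrix and macrophage lists lie further right in CHIP-/-, fuel-burning lists lie further left, and both respiratory chain lists lie below 0 in CHIP-/- and at about 0 in wild type, where median centring puts them below 0 too.

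Outside the mitochondrial groups above, the largest falls by interaction included Yipf7, of the Yip1 family of Golgi membrane proteins, with log2 ratios of 1.39, 2.03, 1.73 and 1.86 in CHIP-/- TAB and 3.48, 3.44, 3.35 and 3.54 in CHIP-/- sham, against 2.99, 2.66, 2.88 and 2.62 in wild-type TAB and 3.61, 3.38, 3.47 and 3.16 in wild-type sham. No TAB group overlapped with its sham group (interaction -1.08, SE 0.16, adjusted p = 0.00074). Ift81, of intraflagellar transport, fell by 2.29 in CHIP-/- and 1.2 in wild type, Rpl3l, the striated muscle paralogue of a ribosomal protein, by 1.84 and 0.82, and Herpud1, which serves the degradation of misfolded proteins of the endoplasmic reticulum, by 1.49 and 0.44. The calcium store protein gene Hrc fell by 1.80 and 0.98, and Ces1d, a carboxylesterase that was above background on 3 of the 4 CHIP-/- TAB arrays, by 2.02 and 1.00. Tnni3 fell by 0.65 in CHIP-/-, with -0.02 in wild type. Calls of Rpl3l (-0.95, adjusted p = 0.052), Herpud1 (-0.93, adjusted p = 0.066) and Tnni3 (-0.51, adjusted p = 0.24) ended, as did those of Hrc (-0.75, 0.06) and Ces1d (-0.83, 0.17), without the 3 arrays with Y-linked transcripts. The alcohol dehydrogenase gene Adh1 and the cytochrome gene Cyp4b1 fell in CHIP-/- by 0.91 and 0.74, and their wild-type values of 0.03 and 0.17 did not pass.

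The 31 responses that were smaller in CHIP-/- were mostly rises, and 5 of them were of endothelial marker genes. Of 24 measured endothelial markers 9 were called lower and 0 higher, against 2.6% of all features called lower. With TAB 8 of these markers rose in CHIP-/- and 17 in wild type, against 24% and 18.7% of all features. The markers' mean log2 ratio was 0.83 to 0.98 in CHIP-/- TAB and 0.77 to 0.82 in CHIP-/- sham, against 1.02 to 1.27 in wild-type TAB and 0.68 to 0.83 in wild-type sham. Averaged in this way, the wild-type TAB arrays lay above all others, and with median centring the median response was -0.21 in CHIP-/- and 0.10 in wild type, in place of 0.06 and 0.39. Leaving out the 3 arrays with Y-linked transcripts, 4 of the 24 were called lower.

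Gpihbp1, which holds lipoprotein lipase on capillary endothelium, had log2 ratios of 1.86, 1.78, 1.51 and 1.67 in CHIP-/- TAB and 1.67, 1.75, 1.56 and 1.56 in CHIP-/- sham, against 2.24, 2.32, 2.40 and 2.48 in wild-type TAB and 1.49, 1.62, 1.63 and 1.49 in wild-type sham. The 4 wild-type TAB arrays stood above the other 12. The CHIP-/- difference of 0.07 did not pass, whereas the transcript rose by 0.80 in wild type (interaction -0.73, SE 0.11, adjusted p = 0.00066). Rbp7, a retinol-binding protein of endothelium, had log2 ratios of 2.82, 2.63, 2.36 and 2.64 in CHIP-/- TAB and 2.12, 2.57, 2.26 and 2.26 in CHIP-/- sham, against 3.36, 3.23, 3.31 and 3.81 in wild-type TAB and 1.63, 2.31, 2.34 and 1.93 in wild-type sham. The wild-type TAB arrays again stood highest, and the CHIP-/- groups overlapped (interaction -1.06, SE 0.20, adjusted p = 0.0031, and -0.91 with adjusted p = 0.065 without the 3 arrays with Y-linked transcripts).

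Fabp4, a fatty acid binding protein of capillaries and fat, rose in both genotypes, by 0.77 in CHIP-/- and 1.55 in wild type (interaction -0.78). Its level was 0.67 to 1.10 in CHIP-/- TAB and 0.14 to 0.20 on the 3 measured CHIP-/- sham arrays, against 1.13 to 1.54 in wild-type TAB and -0.42 to -0.05 in wild-type sham. Ly6c1, a surface antigen of endothelium and monocytes, rose by 0.23 in CHIP-/- and 0.91 in wild type (interaction -0.68, and -0.94 on its second probe). Mgll, the lipase of monoacylglycerols, had 0.11 in CHIP-/-, which did not pass, and rose by 0.74 in wild type. The scaffold gene Slc9a3r2 had 0.03 in CHIP-/- and rose by 0.63 in wild type, and Mt1, a zinc-binding metallothionein, had 0.11 in CHIP-/- and rose by 0.89 in wild type, with neither CHIP-/- value passing. The second probe of Mt1 showed no such difference, with -0.03 and -0.02 (interaction -0.0092, adjusted p = 0.99), and Slc9a3r2 was not called without the 3 arrays with Y-linked transcripts (-0.62, adjusted p = 0.055). With median centring the CHIP-/- responses of Gpihbp1, Rbp7, Ly6a, Ly6c1 and Mgll lay between -0.33 and -0.11, and that of Fabp4 was 0.14.

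Ly6a and Ifi27 were higher in CHIP-/- than in wild type after sham. Ly6a had log2 ratios of 2.30, 2.29, 2.25 and 2.25 in CHIP-/- TAB and 2.22, 2.21, 2.29 and 2.21 in CHIP-/- sham, against 2.49, 2.57, 2.55 and 2.61 in wild-type TAB and 2.00, 1.83, 1.78 and 1.67 in wild-type sham. The 8 CHIP-/- arrays lay between the 2 wild-type groups (interaction -0.70, SE 0.10, adjusted p = 0.00035). Ifi27 had an interaction of -0.37 on its brightest probe and 0.68 on its other, both called, so its direction is not settled. Fgd4 was not well above background on any wild-type TAB array, so its fall in wild type has only a bound: wild-type TAB was at least 1.34-fold lower than wild-type sham (adjusted p = 6.0e-05). The sign of its interaction was reversed in 2 other settings.

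**Figure D5:**
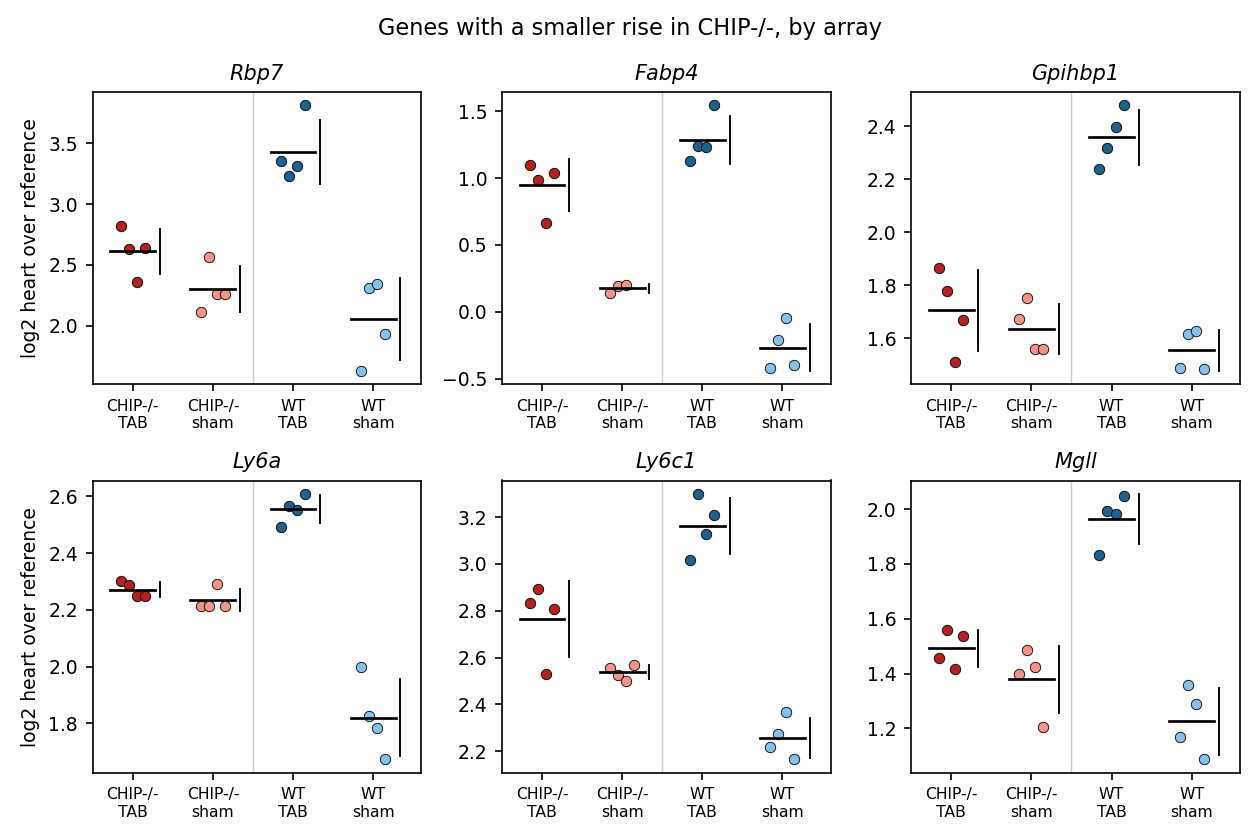
Log2 ratios of Rbp7, Fabp4, Gpihbp1, Ly6a, Ly6c1 and Mgll on every array, by group; points are arrays, the horizontal line is the mean and the vertical line is ± 1 SD (n = 4, with 3 arrays for Fabp4 in CHIP-/- sham). The wild-type TAB points lie highest in each panel, and for Gpihbp1, Ly6a and Mgll the CHIP-/- TAB points lie near CHIP-/- sham.

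Several classic responders to pressure overload had no called interaction. Myh7, the beta myosin heavy chain, rose by 2.11 in CHIP-/- and 1.60 in wild type (interaction 0.51, SE 0.46, adjusted p = 0.62), and single arrays moved that value from 0.13 to 0.83. Acta1, skeletal alpha actin, rose by 1.53 and 1.38 (interaction 0.16, SE 0.16), Myh6 fell by 0.76 and 0.48 (interaction -0.28, SE 0.11), and Atp2a2, which pumps calcium back into its store, fell by 0.89 and 0.49 (interaction -0.40, SE 0.13, adjusted p = 0.083). Prkaa2, a catalytic subunit of the energy sensor AMPK, fell by 0.64 and 0.56 (interaction -0.09, SE 0.13).

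The cell cycle and cytosolic ribosomal protein lists also responded to TAB in both genotypes. Of 34 cell cycle genes 29 rose in CHIP-/- and 26 in wild type, against 24% and 18.7% of all features. The cell cycle medians were 0.57 and 0.48, and limma called 0 interactions (3 higher at an unadjusted p below 0.05), against 5.43% of all features. Of 57 cytosolic ribosomal protein genes 53 rose in CHIP-/- and 54 in wild type, with medians of 0.44 and 0.47 (-0.15 and 0.01 with median centring), and 1 was called higher and 1 lower. Of 42 cytosolic chaperone genes 1 was called higher and 0 lower, against 2.83% of all features called higher. The chaperone medians were 0.04 in CHIP-/- and -0.11 in wild type. The called gene was Hsp90aa1, of the Hsp90 family, with a larger rise in CHIP-/-. Without the 3 arrays with Y-linked transcripts limma called 0 of the 42 (6 higher and 1 lower at an unadjusted p below 0.05). Of 36 proteasome genes 3 were called lower and 0 higher, 8.33% against 2.6% of all features called lower, with medians of -0.09 and -0.02, and with median centring limma called 0 (3 lower at an unadjusted p below 0.05). Hspa1a, an inducible Hsp70 and so a binding partner of CHIP, was looked at after its values were seen: its log2 ratios were -1.0, 0.07, 0.56 and -1.40 in CHIP-/- TAB and -1.52, -1.35, -1.70 and -1.24 in CHIP-/- sham, against -0.51, 0.12, -1.28 and -1.14 in wild-type TAB and -0.35, 1.96, -1.31 and 2.60 in wild-type sham. Its wild-type sham arrays spanned the widest range, and its interaction of 2.44 (SE 0.81) missed the threshold (adjusted p = 0.083). A p above the threshold does not show that these responses are equal: the median SE of an interaction was 0.13.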

How the data were processed

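Ventricular RNA (500 ng by Trizol and a low-input labelling kit, per the labels) was hybridised to 16 Agilent two-colour arrays. Per the file headers, spot intensities were taken from the scans with Feature Extraction 9.1.3.1, and the log10 ratios it wrote were background-subtracted and dye-normalised. The deposited series table holds log2 ratios processed by the authors. The CHIP-/- TAB files were deposited with intensities rounded to 3 significant digits.

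From the mean and background intensities, limma 3.58.1 in R 4.3.3 applied normexp with an offset of 50 and loess within arrays. Control and outlier spots were left out, saturated spots kept, and spots averaged to 41174 probes. Outlier spots numbered 459, 55, 291 and 109 on CHIP-/- sham replicates 1 to 4 and 3 to 22 on every other array, of 43379 spots that were not controls. Probes whose Cy5 signal was well above background on 4 or more of the 16 arrays, with values on at least 15, gave 11058 features after keeping the brightest probe per gene, 9962 of them with a symbol. Of the 41174 probes, 22951 were named by accession, 6659 by symbol and 3109 by synonym through RefSeq (GRCm38.p6), and 8455 kept the name in the file. One limma fit of the 4 group means over all 16 arrays, with an intensity trend, gave 5 contrasts, each adjusted by the Benjamini-Hochberg method over 11058 features at 0.05. The arrays hold biological replicates per the labels, and the p-values measure the spread between these arrays. The number of arrays limits the precision.

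Named genes are the 15 largest interactions in each direction, up to 10 opposite-sign genes in each direction by their smaller response, the 10 largest that were smaller in CHIP-/-, up to 4 per gene list by p, and fixed genes such as Stub1, Nppa and Myh7. Not all genes that this rule picked are described. Members and gene lists were chosen with earlier results of these data known. A fold given as "at least" compares the brighter group's mean with the dimmer group's mean of, per array, the higher of its own signal and the lowest signal well above background. Alternatives covered background correction, scaling, filters, probes, variance models, blocks and left-out arrays. The code was tested on simulated data.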

Additional observations from a re-analysis of the deposited data

Results flagged for a closer look

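The TAB response differed between the genotypes, by the test of the interaction, for 600 features. Among the named genes that responded in opposite directions under the main scaling, the interaction (log2) was -2.35 for Pdk4, -1.64 for Timp4, -1.29 for Tacc2, -1.17 for Myot, -0.76 for Fam13a, -0.68 for Timp3, -0.60 for Tmem144, -0.57 for Lims2, -0.55 for Asph, -0.53 for Kcnj8, -0.52 for Flt1 and -0.46 for Mrpl23. It was 0.44 for Tln1, 0.45 for Snd1, 0.46 for Hk1, 0.48 for Zfp521, 0.57 for Sema3b and 1.54 for Phlda1. For Marchf3 the fit gave 0.55, which is no exact size because 2 of its 4 groups were not above background on any array.

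In 21 of 416 groups of 4 arrays examined for the named genes, 1 array stood apart, with a gap to its neighbour that was most of the group's range (above Dixon's critical value for 4 samples), and chance flags about 1 in 20 such groups. In 9 of the 21 this was wild-type sham replicate 4, which was highest for Postn (gap 0.946 of the range), Ctss (0.932), Serpinb1a (0.894), Col8a1 (0.891), Ctsb (0.882), Ltbp2 (0.854), Clu (0.839), Fstl1 (0.834) and Timp1 (0.8295). This is also 1 of the 3 arrays with Y-linked transcripts, and without it 344 interactions were called.

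The other gaps were spread over arrays and genes. CHIP-/- TAB replicate 3 was lowest for Cyp4b1 (0.914), Sult1a1 (0.88) and Mt1 (0.876) and highest for Tgfb3 (0.879), and CHIP-/- TAB replicate 1 was highest for Phlda1 (0.902) and lowest for Clu (0.895). CHIP-/- sham replicate 4 was highest for Asph (0.908) and C1qc (0.87) and lowest for Ctsb (0.877), and CHIP-/- sham replicate 3 was highest for Ly6a (0.968) and Spp1 (0.889). Wild-type TAB replicate 4 was highest for Tacc2 (0.83).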

How the results depend on the processing

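Across 35 alternatives the called features kept the sign of their interaction in all but 5 cases, but their number moved. The main analysis called 600 (313 higher and 287 lower in CHIP-/-; 173 of opposite sign, 27 with both responses called, 396 larger, 31 smaller), and the genotype difference was called for 1276 features after TAB and 4 after sham. With median centring in place of loess these were 181 (95 higher, 86 lower; 40 opposite, 9 with both called, 137 larger, 4 smaller), with 439 after TAB and 22 after sham. With no filter on dim probes they were 387 of 27562 features (207 higher, 180 lower; 113 opposite, 11 with both called, 254 larger, 20 smaller). With no intensity trend 387 were called (168 lower, 250 larger). Without the 3 arrays with Y-linked transcripts 98 were called (54 higher, 44 lower; 28 opposite, 8 with both called, 62 larger, 8 smaller), with 8 after sham, and with those transcripts as a covariate 638, with 14 after sham. Without the 3 arrays with high Myl7 441 were called (167 lower, 18 smaller), with 2582 TAB responses in wild type and 18 differences after sham. The difference after sham was called for 2 features from the scanner software's processed ratios, 2 from the deposited series table and 34 with array weights. The causes were not tested. Leaving out single arrays gave 343 (without CHIP-/- TAB replicate 3) to 789 (without CHIP-/- TAB replicate 2) called interactions, with 344 without wild-type sham replicate 4, 392 without CHIP-/- sham replicate 2 and 393 without wild-type TAB replicate 1. Over these fits the ranges were 192 to 383 higher, 151 to 406 lower, 80 to 216 opposite, 15 to 33 with both called, 224 to 543 larger, 20 to 34 smaller, 4717 to 5288 TAB responses in CHIP-/- and 3420 to 4017 in wild type, 809 to 1383 differences after TAB and 2 to 15 after sham. Of the named genes, the sign of Fgd4 was reversed in the deposited series table (-0.22) and with no filter on dim probes (-0.092), and that of Ifi27 with the mean of its probes (0.15). With the replicate block 507 were called. Deviations of same-numbered arrays correlated between -0.19 and 0.185 (median -0.0065, 3 of 24 pairs over 0.1). This cannot tell whether same-numbered arrays shared a litter or an operating day. The position on the slide as a block, added after seeing the data, gave 499. Dim probes limit what could be seen: 26.9% to 37.2% of heart-channel spots were well above background.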

Other observations

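Several genes outside the groups above also had a called interaction. Igf1, the insulin-like growth factor, rose by 1.14 in CHIP-/- and 0.62 in wild type (interaction 0.52), and Igfbp7, one of its secreted binding proteins, by 1.68 and 1.14 (0.54). The complement gene C1qc rose by 0.84 in CHIP-/- and 0.42 in wild type (0.42), and C3, the central complement component, rose by 0.41 in CHIP-/-, with -0.03 in wild type not passing. Gpx3, an extracellular glutathione peroxidase, rose by 1.32 in CHIP-/- and 0.41 in wild type (0.90).

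Gja1, the gap junction protein connexin 43, had 0.06 in CHIP-/-, which did not pass, and fell by 0.43 in wild type (interaction 0.49). Csrp3, the muscle LIM protein of the Z-disc, had -0.02 in CHIP-/-, which did not pass, and rose by 0.33 in wild type (interaction -0.35). Prkab2, a beta subunit of AMPK, rose by 0.52 in CHIP-/-, with -0.11 in wild type not passing (interaction 0.63). With median centring the estimated responses were below 0 in both genotypes for C3 (-0.20 in CHIP-/- and -0.51 in wild type), Gja1 (-0.27 and -0.68) and Csrp3 (-0.59 and -0.13). Without the 3 arrays with Y-linked transcripts the interaction of Prkab2 stayed called, and those of Igf1 (adjusted p = 0.072), Igfbp7 (0.33 on the log2 scale, adjusted p = 0.42), C1qc (0.066), C3 (0.2), Gpx3 (0.12), Gja1 (0.12) and Csrp3 (0.21) were not. The second probe of Igf1 gave 0.37 (adjusted p = 0.13).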
